A study of Mus musculus with 677 samples.

Results

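The 10 genes described here belong to the brush border and to the keratin filaments beneath it, and were followed across the mouse intestinal epithelium. They were taken by symbol from the deposited expression table: Vil1, Ezr, Myo1a, Espn, Eps8, Cdhr2, Cdhr5, Krt8, Krt19 and Krt20. All 10 were found among the 23420 genes listed. They were read in 2 sets of 5. Krt8, Krt19, Ezr, Vil1 and Eps8 were taken as constitutive, since their proteins are known from the crypt onward, and Krt20, Myo1a, Espn, Cdhr2 and Cdhr5 as late-onset, tied to the finished brush border. The split was made with the pattern of these genes over cell types known.

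The brush border is the array of microvilli on the luminal face of the absorptive enterocyte. Each microvillus holds a bundle of actin filaments, crosslinked by villin and espin, tied to the membrane by ezrin and myosin-1a, and capped at the tip by Eps8, while protocadherins join neighbouring tips. Below it lies the terminal web, a mesh of myosin, spectrin and keratin filaments. Keratin filaments are built from pairs, a type II keratin such as Krt8 with a type I keratin such as Krt18, Krt19 or Krt20.

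The series held single epithelial cells sequenced by SMART-Seq2, a plate-based full-length method, from Atg16l2-/- mice (KO) and from wild-type mice (WT), all C57BL/6. Atg16l2 is a homologue of the autophagy gene Atg16l1, and the study examined what its loss does. Age, sex and the stretch of intestine were not given, nor how the allele was made. Each cell's name gave its sequencing run, 1 of 9 cell types named by the authors, and M1 or M2, read here as an animal of its genotype. Every animal had 80 to 87 cells in each of 2 runs. The labels do not say that M1 and M2 are animals, nor whether M1 of run 1 and of run 2 is the same one. On this reading there were 2 animals per genotype, and every SD, n and p-value below rests on it and concerns these 4 alone. Each SD measures the spread between animals, while the p-values also draw on the spread of all genes kept. In a fit on the 8 combinations of run and animal, the 2 runs of an animal were modelled as correlated, with run as a covariate. No member passed there on the average, in a type or in the Enterocyte-minus-Stem step. The reading of 8 separate animals was not fitted.

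Values were TPM, a relative transcript abundance scaled for transcript length, so levels of different genes can be set side by side; depth per cell is unknown. Atg16l2 itself was above 0 in 0 KO cells, which allows a share of up to 0.877%. It was above 0 in 11.3% of WT cells, 38 in number. The exact binomial 95% interval was 8.15 to 15.2% and covers counting error only. Means of WT M1 and WT M2 were 17.2 and 26.3 TPM in Stem and 10.6 and 11.1 TPM in TA cells. In Enterocyte cells Atg16l2 was above 0 in no cell of either genotype, so its loss could not be seen there. Over both genotypes, 1.41% of early progenitors, 1.33% of late progenitors and 2.86% of Goblet cells were above 0. The share was 12.5% in Enteroendocrine and 9.09% in Paneth cells. The median number of genes above 0 was 5852 to 6615 over the KO animals and runs and 5460.5 to 6599 over the WT ones. Marker sums went with most of the type labels. The 5 enterocyte markers summed to 13779 TPM in Enterocyte cells and to at most 1762 TPM in any other type, 5 stem markers to 17105 TPM in Stem cells, and 5 tuft markers to 8973 TPM in Tuft cells. TA was the exception: its 5 markers summed to 619 TPM in TA cells and to 777 TPM in early progenitors, and TA cells also held 8691 TPM of the stem markers. In Paneth cells 5 Paneth markers took 312014 TPM of the fixed sum. The same markers summed to 84522 and 2092 TPM in Goblet cells of KO M1 and KO M2, against 20465 and 3673 TPM in those of WT M1 and WT M2. The authors' types may have been set with these same genes, so levels by type are described without a test.

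The keratins differed most in their course over cell types, so the sequences before their start sites are shown from RefSeq (GRCm38.p6), with Vil1 as a microvillus gene for comparison. Each line gives the 250 bases before the start, 5′ to 3′. Capitals mark, on either strand, CACCC (the core of sites bound by KLF factors), TTTAT (the core bound by CDX factors), CAAAGTC (part of a site bound by HNF4) and TATAAA (the TATA box); the last of these contains the complement of TTTAT, so the 2 overlap.
Krt8 promoter, chr15:102004343-102004592 (- strand): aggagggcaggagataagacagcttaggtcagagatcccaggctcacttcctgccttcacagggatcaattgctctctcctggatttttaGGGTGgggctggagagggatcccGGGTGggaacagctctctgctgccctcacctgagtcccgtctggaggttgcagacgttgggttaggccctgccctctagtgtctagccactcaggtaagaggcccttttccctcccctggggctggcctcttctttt
Krt18 promoter, chr15:102027966-102028215 (+ strand): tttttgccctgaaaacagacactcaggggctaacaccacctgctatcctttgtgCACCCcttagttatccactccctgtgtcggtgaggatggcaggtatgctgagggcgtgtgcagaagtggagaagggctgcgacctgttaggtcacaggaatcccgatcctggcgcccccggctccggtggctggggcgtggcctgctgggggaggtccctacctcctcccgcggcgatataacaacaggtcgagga
Krt20 promoter, chr11:99438154-99438403 (- strand): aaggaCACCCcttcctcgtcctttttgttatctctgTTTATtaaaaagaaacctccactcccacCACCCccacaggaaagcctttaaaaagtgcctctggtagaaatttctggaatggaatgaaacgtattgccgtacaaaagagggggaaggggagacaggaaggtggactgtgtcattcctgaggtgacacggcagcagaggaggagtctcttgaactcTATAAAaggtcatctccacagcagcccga
Vil1 promoter, chr1:74409134-74409383 (+ strand): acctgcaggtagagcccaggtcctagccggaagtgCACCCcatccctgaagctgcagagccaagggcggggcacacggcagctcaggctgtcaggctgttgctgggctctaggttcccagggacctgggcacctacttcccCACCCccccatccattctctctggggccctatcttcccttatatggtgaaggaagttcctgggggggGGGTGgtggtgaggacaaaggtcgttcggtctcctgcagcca
The Krt20 window held TATAAA 29 to 24 bases before the start, TTTAT on both strands and CACCC at 2 places. Of the 8 members with a promoter entry, Krt20 was the only one with TATAAA, which 12.4% of all 32851 promoter windows of this length hold. TTTAT stood in the windows of Krt20, Espn and Cdhr5, against 37.3% of all windows. CACCC stood in 6 of the 8, against 52% of all windows, and CAAAGTC in Cdhr2 alone, against 3.8%. Members were counted by gene and the shares by window. Espn had several windows, of which not all held TTTAT or CACCC. Krt8 and Krt18, the classic partners of simple epithelia, start 23.9 kb apart on chromosome 15 and are read away from each other.

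Krt8, the type II keratin, was above 0 in every cell of the table. Its mean over animals was 1130 ± 75.6 TPM in Stem cells, 1780 ± 151.3 in TA (transit-amplifying) cells, 3531 ± 413 in early and 4971 ± 385 in late enterocyte progenitors (SD, n = 4 animals). In Enterocyte cells it averaged 4010 ± 555 TPM, and all 4 animals were lower there than in their late progenitors. The neighbours early progenitor and Enterocyte, and TA and Goblet, overlapped between animals.

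Krt19, a type I keratin, followed the same course, with 959 ± 57.4 TPM in Stem cells, 4408 ± 355.1 in late progenitors and 3276 ± 191 in Enterocyte cells (SD, n = 4). It also peaked in late progenitors in all 4 animals. Its lowest level among the 6 larger types was in Goblet cells, at 858 ± 184.3 TPM, where its animals overlapped those of Stem cells. Krt8 and Krt19 were therefore not flat along the crypt-to-villus course: Enterocyte exceeded Stem by 1.82 and 1.77 on the log2 scale.

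Krt20, a type I keratin of the differentiated villus, had the steepest course of the members. It was above 0 in 16.7% of Stem cells and 16% of TA cells, in 62% of early progenitors, 96% of late progenitors and all 58 Enterocyte cells. Mean levels were 8.17 ± 5.34 TPM in Stem cells, 115.5 ± 46.2 in early progenitors, 458 ± 85.1 in late progenitors and 1172 ± 266.7 in Enterocyte cells (SD, n = 4). Every animal rose at each step after TA, and the Enterocyte-minus-Stem difference averaged 7.42 on the log2 scale, with 9.34 in KO M1 and 6.73 to 6.84 in the other animals. In Stem and TA cells Krt20 was below the filter on low values, so its step depends on the pseudocount. Goblet cells also held 443 ± 64.1 TPM, overlapping the late progenitors. Of 32 Enteroendocrine cells 56.2% were above 0, with a median of 21.01 TPM and a highest cell of 9628 TPM, above the highest Enterocyte cell at 2846 TPM.

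Krt18, the other partner of Krt8 and not itself among the 10, went the opposite way. It averaged 821 ± 92.8 TPM in Stem cells and 205.8 ± 68.5 TPM in Enterocyte cells (SD, n = 4), a step of -2.04 on the log2 scale, lower in Enterocyte cells in all 4 animals. Its highest level among the 6 larger types was 2069 ± 290 TPM in Goblet cells. Of the summed TPM of these 4 keratins, Krt18 took 25.6 to 31.5% in Stem cells, 4.48 to 5.48% in early progenitors and 1.80 to 3.13% in Enterocyte cells over the 4 animals. Krt20 took 0.00859 to 0.417%, 0.864 to 2.14% and 10.99 to 14.7% in the same types. Krt19 took 30.01 to 34.6% in Stem cells and 35.6 to 41.5% in Enterocyte cells, and Krt8 stayed between 37.4 and 51.2% in all 6 types. The ratio of type I to type II keratin transcripts was 1.51 to 1.65 in Stem cells, 0.953 to 1.07 in early progenitors, and 1.40 to 1.68 in Goblet cells.

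**Figure D1:**
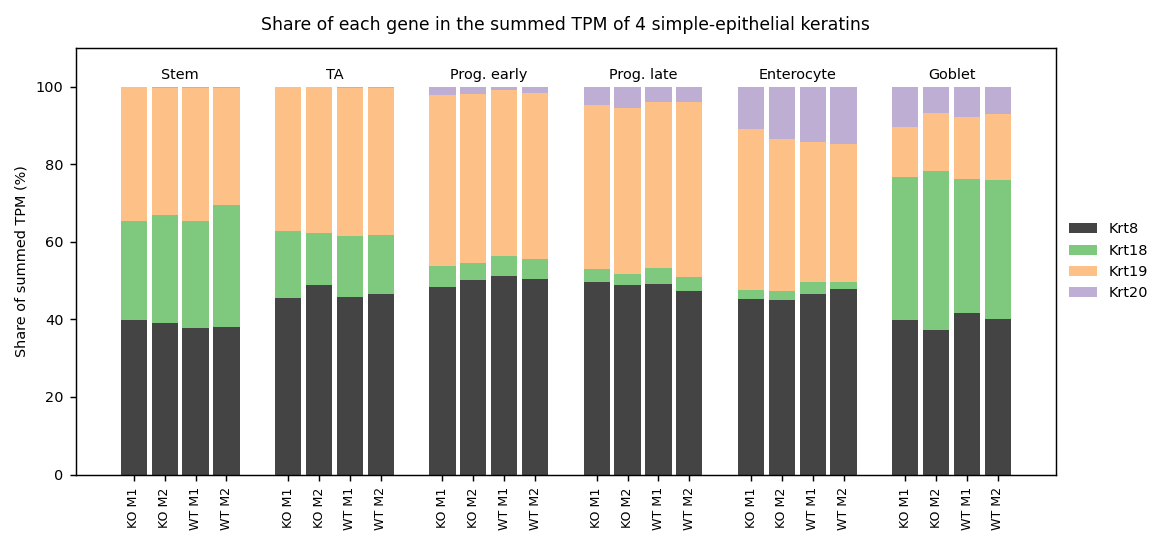
Stacked bars give the share (%) of Krt8, Krt18, Krt19 and Krt20 in their summed TPM, for each of 4 animals in 6 cell types, KO animals left of WT animals. Krt18 narrows from Stem to Enterocyte, where Krt20 reaches 10.99 to 14.7%, while Goblet cells keep Krt18 at 34.5 to 40.96%.

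Vil1, the villin that bundles and severs actin, was above 0 in 97.9% of Stem cells and every Enterocyte cell. It stayed level between Stem cells, at 228.2 ± 22.1 TPM, and TA cells, at 219.4 ± 16.8 TPM, whose animals overlapped. It then reached 303.01 ± 52.7 TPM in early progenitors, 564 ± 74.5 in late progenitors and 1274 ± 192.98 in Enterocyte cells (SD, n = 4). Its rise therefore fell mainly in the last 2 steps, and its step of 2.47 on the log2 scale was close to that of late-onset Cdhr2, at 2.67.

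Ezr, the ezrin that links actin to the membrane, averaged 76.2 ± 10.8 TPM in Stem cells, 137.7 ± 19.8 in late progenitors and 304.2 ± 46.99 in Enterocyte cells (SD, n = 4). It was higher in each later type along the line in all 4 animals from TA to Enterocyte, although the ranges of TA cells, Goblet cells and both progenitor types ran into each other. Eps8, the capping and bundling protein of the microvillus tip, was the least abundant constitutive member and the least ordered. It averaged 30.02 ± 5.46 TPM in Stem cells, 10.4 ± 2.75 in early progenitors and 47.1 ± 17.7 in Enterocyte cells (SD, n = 4). Early progenitors were below TA cells in all 4 animals, and Stem and Enterocyte overlapped.

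Among the late-onset set, Myo1a, the brush border myosin that tethers the actin core to the membrane, was already above 0 in 77.1% of Stem and 96.6% of TA cells. It averaged 96.7 ± 27.2 TPM in Stem cells, 210.9 ± 42.1 in early progenitors, 433 ± 71.9 in late progenitors and 712 ± 76.98 in Enterocyte cells (SD, n = 4). Cdhr5, the mucin-like protocadherin of the tip links, averaged 54.9 ± 21.6 TPM in Stem cells, 162.9 ± 26.8 in early progenitors and 745.5 ± 112.3 in Enterocyte cells. Cdhr2, its protocadherin partner, averaged 36.4 ± 8.90 TPM in Stem cells, 70.6 ± 11.02 in early progenitors and 236.2 ± 45.7 in Enterocyte cells. Both were above 0 in a majority of Stem cells, 70.8% for Cdhr5 and 65.6% for Cdhr2, so the word late-onset describes their slope and not an absence from the crypt. The mean Enterocyte-minus-Stem steps ran from 2.67 to 7.42 on the log2 scale in the late-onset set, with a median of 3.81, and from 0.57 to 2.47 in the constitutive set, with a median of 1.82. Because the sets were made with this pattern known, the gap between them is a description and no test of the split. By animal the sets touched, since Cdhr2 ran from 2.17 to 2.99 and Vil1 from 2.27 to 2.76.

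Espn, the espin that crosslinks parallel actin bundles, was low until the last step. It averaged 5.10 ± 1.23 TPM in Stem cells, 0.676 ± 0.695 in TA cells, 7.22 ± 5.94 in late progenitors and 93.3 ± 42.1 in Enterocyte cells (SD, n = 4). Of the Enterocyte cells 56.9% were above 0, and of the late progenitors 20%. Neighbours in the order of the types below Enterocyte overlapped, although TA cells lay below Stem cells in all 4 animals. Cells with all 5 late-onset genes above 0 numbered 0 Stem, 2 TA, 12 early progenitor, 13 late progenitor and 33 Enterocyte cells, or 0, 1.14, 8.45, 17.3 and 56.9% of each type, while the median cell of each of these types had all 5 constitutive genes above 0. TPM above 0 depends on depth, which is unknown, and the median number of genes above 0 was 5688 in Stem and 5850.5 in Enterocyte cells.

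**Figure D2:**
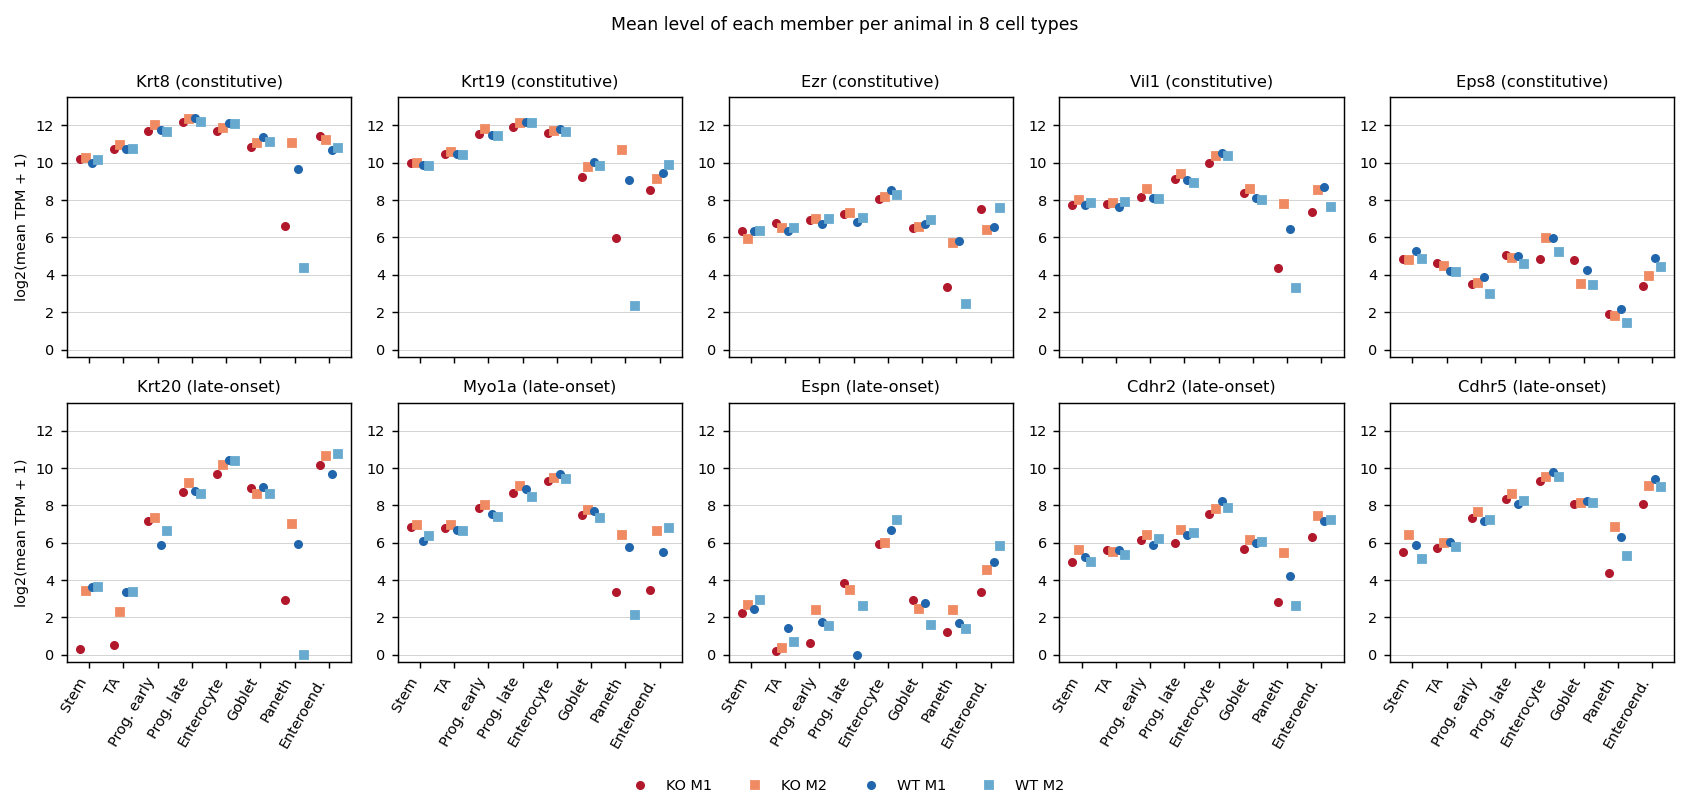
Each panel plots log2(mean TPM + 1) of a member in 8 cell types, with a point per animal, KO M1 and KO M2 left of WT M1 and WT M2. Krt20 climbs from near the bottom of the axis in Stem cells to 811 to 1407 TPM in Enterocyte cells, whereas Eps8 stays low and unordered; the Paneth points scatter widely.

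Outside the absorptive line, Tuft cells had their own pattern, described over 7 cells pooled from 4 animals. Espn was above 0 in all 7, with a median of 517 TPM against 17.1 TPM in Enterocyte cells. Krt8 had a median of 6587 TPM and Krt18 of 6150 TPM there, while Krt19 was above 0 in 3 of the 7 cells and Eps8 in 1. Vil1, Myo1a, Cdhr2 and Cdhr5 were above 0 in all 7, with medians of 797, 389, 202.8 and 817 TPM. In Tuft cells, then, transcripts of Vil1, Espn, Myo1a, Cdhr2 and Cdhr5 were present beside those of Krt8 and Krt18, whereas Eps8 was at 0 in most cells. Whether the keratin proteins pair there was not tested.

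Enteroendocrine cells held Cdhr5 at 496 ± 169.4 TPM and Cdhr2 at 134.9 ± 39.8 TPM, with Myo1a at 65.9 ± 46.7 TPM (SD, n = 4). In Paneth cells the members differed widely between animals. Krt8 averaged 95.5 and 2131 TPM in Paneth cells of KO M1 and KO M2, and 803 and 19.3 TPM in those of WT M1 and WT M2, so the genotypes overlapped. These means rest on 4 and 3 cells in the KO animals and 6 and 9 cells in the WT animals.

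**Figure D3:**
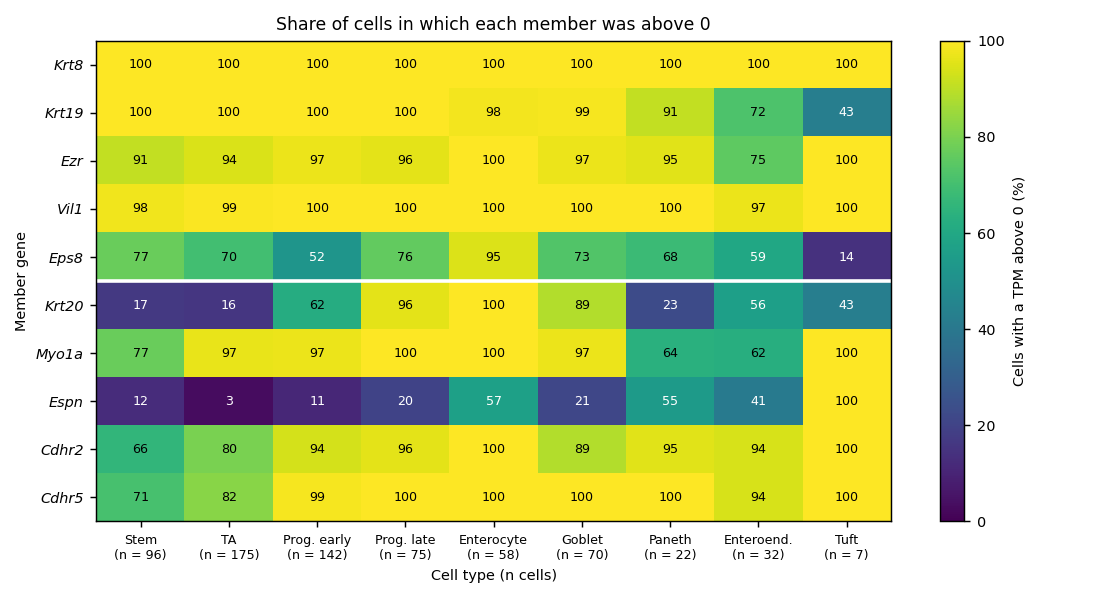
The grid gives the percentage of cells with a TPM above 0 for each member (rows, constitutive above the white line) in 9 cell types (columns, with the number of cells). Espn is above 0 in all 7 Tuft cells but in 56.9% of 58 Enterocyte cells, and Krt19 falls to 42.9% in Tuft cells.

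Cells of a type also differed among themselves. Over the 58 Enterocyte cells, Vil1 and Krt20 had a Spearman rho of 0.712, and Krt20 and Cdhr5 0.756. Krt19 ran against the microvillus genes in these cells, with rho of -0.529 for Vil1 and -0.578 for Cdhr2, while Krt8 and Krt19 went together at 0.779. Over all early progenitors, 31 to 42 cells per animal, the sign of the keratin values was opposite, with rho of 0.393 for Krt19 and Vil1 and 0.244 for Krt19 and Cdhr2. These are descriptions over cells that share animals, runs and a fixed sum of TPM.

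Over 24 profiles (4 animals in 6 types), genes among the most like the mean of the constitutive set were Ckmt1 (Pearson r 0.984), Cyb5b (0.966), Cndp2 (0.964) and Mpp1 (0.964). Those most like the mean of the late-onset set were Tmbim6 (0.975), Gsta1 (0.965), Btnl5 (0.962), Lasp1 (0.956) and Slc43a2 (0.954). The members' own r with their set mean ran from 0.553 for Eps8 to 0.946 for Vil1, and from 0.815 for Espn to 0.974 for Cdhr5. Each member is part of its own set mean, which raises its r, so these values are not on a par with those of other genes. Profiles of an animal share its cells, so no p is given.

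The same step was taken in the wider brush border machinery. Of 27 further genes of the microvillus core and its membrane link, 21 were tested. Enterocyte exceeded Stem by more than 1 on the log2 scale in 11 of them and fell short by more than 1 in 1. The highest was Ceacam20, an adhesion molecule of the microvillus, at 5.59, and the lowest Twf2, a twinfilin, at -1.50. Of 4 partners of the tip-link protocadherins, Anks4b alone exceeded 1, at 1.89. Apical trafficking genes had 2 of 8 above 1, led by the motor Myo5b at 2.08, and terminal web genes 2 of 10, led by Myh14, a nonmuscle myosin, at 1.95. Other keratins and filament linkers had 2 of 14 above 1 and 4 below -1, with Krt23 lowest at -4.80. Over all 6714 genes the median was -0.24. These genes were named as the highest or lowest of their list.

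Loss of Atg16l2 was then compared with limma on log2(mean TPM + 1) per animal, with Benjamini-Hochberg adjustment over all genes kept. On the average of 6 types, none of the 10 members passed an adjusted p of 0.05, and neither did any of the 6714 genes (0.0% called). Members with an unadjusted p under 0.05 numbered 0, against 7.60% of genes. Of the 10, 5 members were higher and 5 lower in KO animals, with a median difference of 0.034 against 0.026 over all genes. Differences lay within 0.25 of 0 on the log2 scale except for Krt20, at -0.51 (SE 0.27, adjusted p = 0.684), where the 95% interval ran from -1.14 to 0.12. That Krt20 value includes Stem and TA cells, where it was below the filter. In Stem cells the means were 0.25 and 9.69 TPM in KO M1 and KO M2, against 11.3 and 11.4 TPM in WT M1 and WT M2, and in TA cells 0.42 and 3.86 TPM in the KO animals, against 9.41 and 9.43 TPM in the WT animals. Both KO animals were lower in both types, KO M1 by far the most, and without KO M1 the average difference of Krt20 was -0.042.

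**Figure D4:**
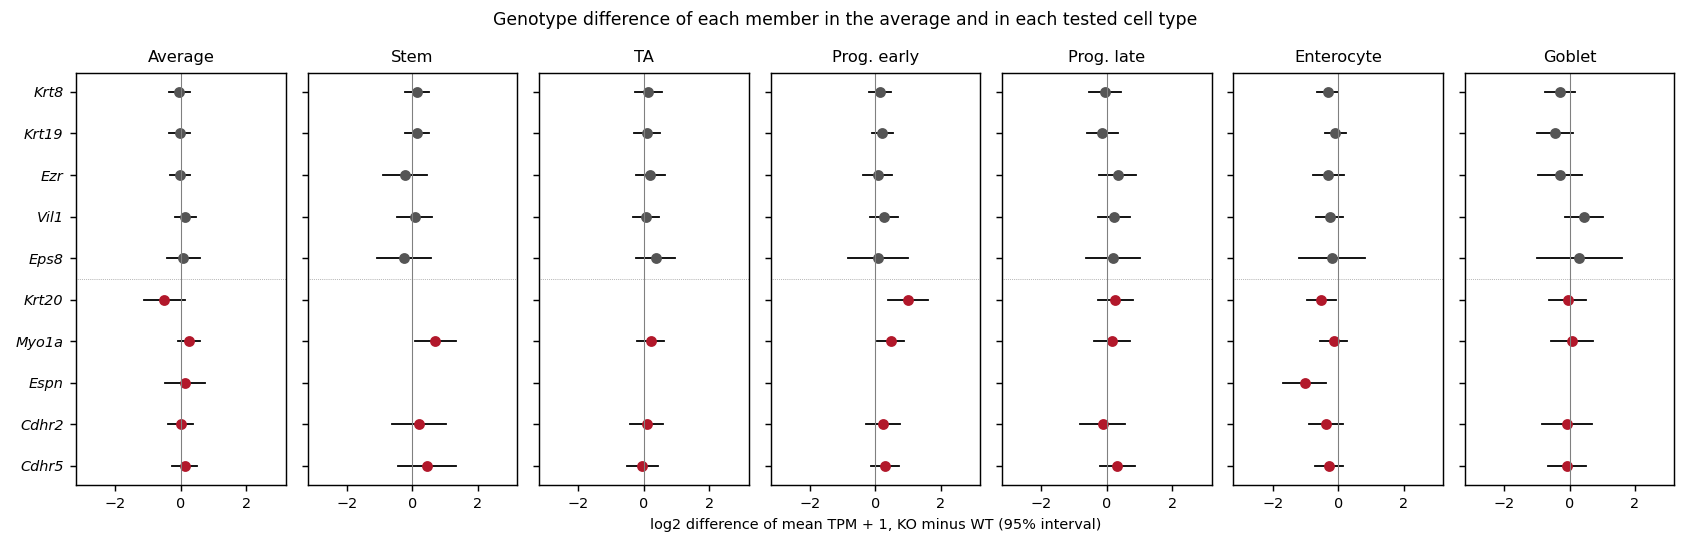
Points give the difference of log2(mean TPM + 1), KO minus WT, for each member in the average and in 6 cell types, and lines the 95% interval from limma; members below the filter in a type have no point. Most intervals cross 0, all 10 points lie below 0 in Enterocyte cells and all 9 above 0 in early progenitors.

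In Enterocyte cells all 10 members were lower in KO animals, with a median difference of -0.29 against -0.036 over all genes, and none passed (0.0342% of 5854 genes called). Of all genes tested in this type, 53.4% were lower in KO animals. Espn averaged 59.6 and 61.4 TPM in KO M1 and KO M2, against 103.7 and 148.6 TPM in WT M1 and WT M2, a difference of -1.03 (SE 0.29, adjusted p = 0.364). Krt20 averaged 811 and 1137 TPM in the KO animals, against 1407 and 1335 TPM in the WT animals, a difference of -0.51 (SE 0.19, adjusted p = 0.486). Krt8 averaged 3340 and 3784 TPM in the KO animals, against 4564 and 4354 TPM in the WT animals, a difference of -0.33 (SE 0.14, adjusted p = 0.591). In all 3 genes both KO animals lay below both WT animals.

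Both KO animals lay below both WT animals for 6 of the 10 members, the others being Ezr, Cdhr2 and Cdhr5, and for 21.6% of all genes in this type. The 3 genes above had unadjusted p under 0.05, as 8.23% of all genes did. By run, 7 of the 10 members were higher in KO cells of run 1 and 0 of the 10 in KO cells of run 2. Krt20 differed by 0.04 in run 1 and by -0.74 in run 2, Krt8 by -0.15 and -0.48, and Espn by -2.80 and -0.57. Espn means in runs 1 and 2 were 0.0 and 89.4 TPM in KO M1 and 164.7 and 18.3 TPM in KO M2. They were 30.5 and 150.2 TPM in WT M1 and 252.1 and 24.5 TPM in WT M2. The value of 0.0 rests on 4 cells, and the near-equal KO means of Espn join unlike runs. The 5 run 1 Enterocyte cells of KO M2 stood apart, with 2291 TPM of Vil1, against 909 to 1061 TPM in the other KO run means and 1055 to 1740 TPM in the WT ones; without all run 1 cells of that animal, Krt20 differed by -0.73, Espn by -1.87 and Krt8 by -0.33.

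Markers of other types moved with this comparison. In Enterocyte cells the 5 goblet markers summed to 96.7 and 996 TPM in KO M1 and KO M2, against 42.8 and 49.1 TPM in WT M1 and WT M2, and the 5 Paneth markers to 3225 and 427 TPM in the KO animals, against 113.1 and 68.8 TPM in the WT animals. The 5 stem markers summed to 353.8 and 34.5 TPM in the KO animals, against 15.4 and 8.4 TPM in the WT animals. Together, 5 genes of T cells reached 34.98 and 20.7 TPM in the KO animals, against 0.90 and 1.58 TPM in the WT animals. The sum of the enterocyte markers overlapped, at 13205 and 12546 TPM in the KO animals, against 12572 and 18284 TPM in the WT animals. Singly, Apoa1 and Apoa4 had both KO animals below both WT animals, while Alpi, Fabp1 and Sis overlapped. Apoa1 averaged 4303 and 5856 TPM in the KO animals, against 8339 and 10487 TPM in the WT animals. Apoa4 averaged 717 and 652 TPM, against 846 and 1161 TPM. Fabp1 averaged 7341 and 4823 TPM, against 2198 and 5916 TPM. The part of these in the lower member levels was not tested.

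In early enterocyte progenitors the direction was the opposite: all 9 members tested were higher in KO animals, with a median of 0.24 against 0.067 over all genes, and none passed (0.0% of genes called). Krt20 averaged 145.1 and 159.8 TPM in KO M1 and KO M2, against 58.1 and 99.1 TPM in WT M1 and WT M2, a difference of 0.99 (SE 0.26, adjusted p = 0.820). Myo1a averaged 230 and 260 TPM in the KO animals, against 187.3 and 166.3 TPM in the WT animals, a difference of 0.47 (SE 0.18, adjusted p = 0.822). The genotypes did not overlap in either gene, nor in Krt19, Vil1 and Cdhr5, which makes 5 of 9 members against 22.7% of all genes in this type.

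Krt20 and Myo1a had unadjusted p under 0.05 here, as did 5.51% of all genes. By run, 9 of the 10 members were higher in KO cells of run 1 and 6 of the 10 in KO cells of run 2. Within run 1 Krt20 differed by 1.71 and Myo1a by 0.86, and within run 2 by -0.13 and 0.12. Without the run 1 cells of KO M2 they differed by 0.21 and 0.34. The Paneth markers summed to 3146 and 145.7 TPM in early progenitors of the KO animals, against 442 and 98.004 TPM in those of the WT animals; their part in these values was not tested.

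**Figure D5:**
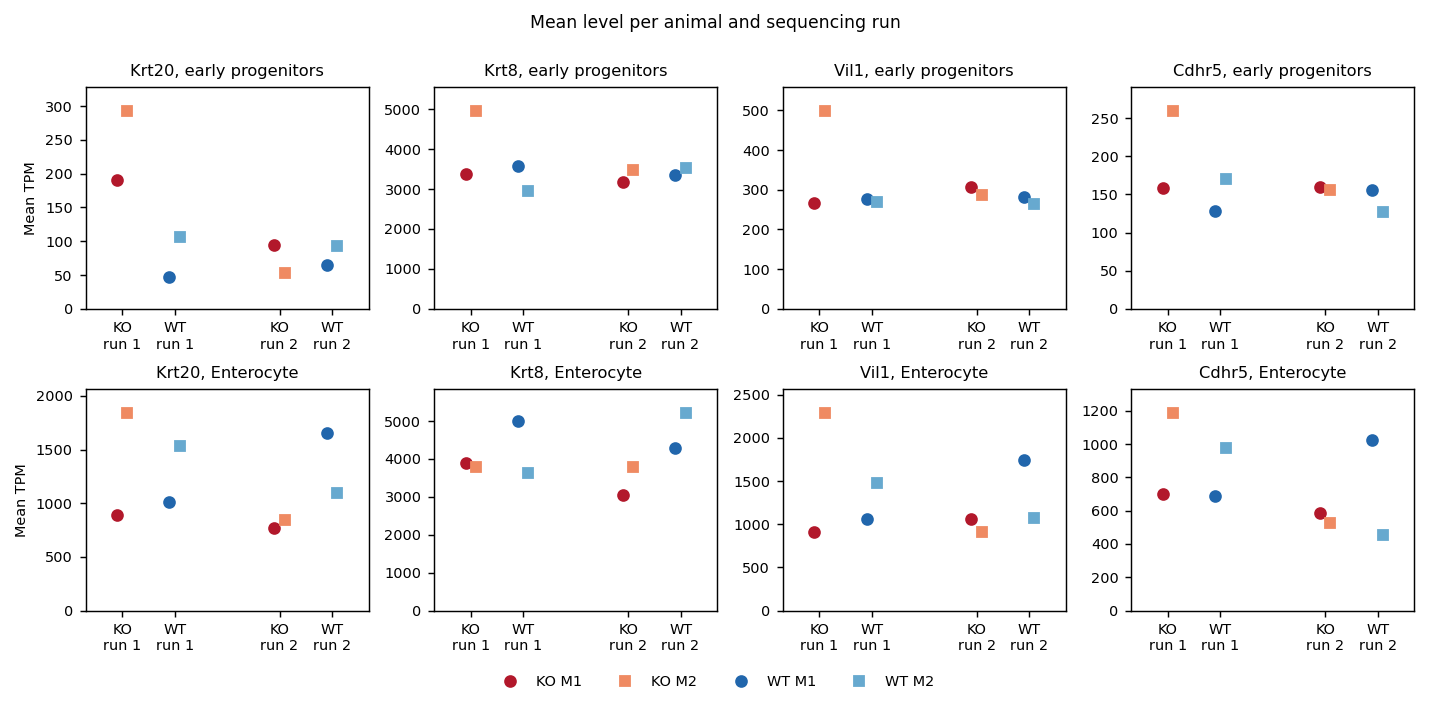
Mean TPM of Krt20, Krt8, Vil1 and Cdhr5 per animal and run in early progenitors (top) and Enterocyte cells (bottom), KO left of WT within each run. The KO M2 point of run 1 is the highest in most panels, as for Krt20 in early progenitors at 292.8 TPM, while in run 2 the Krt20 points of both genotypes lie close together in early progenitors and both KO points lie below both WT points in Enterocyte cells.

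In the remaining types no member passed, and the share of genes called was 0.0% in Stem, 0.0589% in TA, 0.0817% in late progenitor and 0.0161% in Goblet cells. With 1 animal left out, the share ran from 0.0 to 0.194% in Stem, 0.0 to 3.47% in TA, 0.0 to 2.24% in late progenitor, 0.0 to 0.402% in Goblet, 0.0848 to 0.938% in Enterocyte and 0.0 to 0.0918% in early progenitor cells. The highest came without KO M1 in the first 4 of these types and without KO M2 in the last 2, and no member passed in any of them. Of the 8 members tested in Stem cells, 6 were higher in KO animals, while 47.4% of all genes tested there were lower. Myo1a averaged 115.5 and 123.8 TPM there in the KO animals, against 67.5 and 79.9 TPM in the WT animals, a difference of 0.70 (SE 0.28, adjusted p = 0.897), and was the one member with an unadjusted p under 0.05, against 5.50% of genes. Within run 1 it differed by 0.04 and within run 2 by 0.94. In Goblet cells Krt19 averaged 607 and 859 TPM in the KO animals, against 1045 and 921 TPM in the WT animals (difference -0.44, SE 0.25, adjusted p = 0.859). Without KO M1, whose Goblet cells held the most Paneth marker, that difference was -0.19; the part of these markers in it was not tested.

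Whether the KO difference varied over the 6 types was tested by a moderated F test in limma, which no member passed (0.0149% of genes called). An unadjusted p under 0.05 was found for 6 members, Krt8, Krt19, Vil1, Krt20, Myo1a and Espn, against 7.30% of genes. That count was 0 to 3 with 1 animal left out, 1 in run 1 alone and 0 in run 2 alone. Krt20 and Espn were below the filter in some types and entered this test through the types where they are high. Krt19 had the largest F, at 5.48 (adjusted p = 0.373), then Krt8 at 5.06 (0.409) and Krt20 at 4.66 (0.440). Without KO M2, Krt20 had an adjusted p of 0.0330, in a fit where KO M1 stands alone and is assumed to vary like the WT animals. In run 1 alone its adjusted p was 0.763 and in run 2 alone 0.922.

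The Enterocyte-minus-Stem step itself was compared between genotypes, and no member passed (0.0% of genes called). For Krt8 the step was 1.53 and 1.65 on the log2 scale in KO M1 and KO M2, against 2.15 and 1.94 in WT M1 and WT M2, a difference of -0.46 (SE 0.11, adjusted p = 0.605). For Myo1a it was 2.46 and 2.52 in the KO animals, against 3.58 and 3.07 in the WT animals, a difference of -0.83 (SE 0.28, adjusted p = 0.698). Both KO animals had the smaller step in each gene, and 8 of the 10 members had a negative difference, with a median of -0.39 against 0.010 over all genes. These 2 members had an unadjusted p under 0.05, as did 6.63% of genes. In run 1 alone the differences were -0.43 for Krt8 and 0.16 for Myo1a, and in run 2 alone -0.61 and -1.22.

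In the wider lists no gene passed on the average of 6 types. Of 21 further microvillus core genes tested, 13 were higher and 8 lower in KO animals, and of 4 tip-link partners 2 were higher and 2 lower. Ceacam20 differed by -0.49 (adjusted p = 0.764). Among the tip-link partners Calml4 differed by -0.15 (adjusted p = 0.815) and Ush1c, harmonin, by 0.12 (0.839). Apical trafficking genes had 5 higher and 3 lower, with Stx3, a syntaxin, at 0.19 (0.815) and Stxbp2 at 0.13 (0.870). Terminal web genes had 7 higher and 3 lower, with Myl12a, a myosin light chain, at -0.30 (0.684) and the tropomyosin Tpm4 at 0.31 (0.684). Other keratins and linkers had 5 higher and 9 lower, with the linker Eppk1 at 0.34 (0.640) and the lamin Lmnb2 at 0.24 (0.730). Krt18 differed by -0.12 (SE 0.13, adjusted p = 0.850). None of 9 keratins of other epithelia, such as Krt5 and Krt14, passed the filter on low values, and Krt5 was 0 in every cell. In Enterocyte cells 14 of 19 microvillus core genes, 4 of 4 tip-link partners, 6 of 8 apical trafficking genes, 6 of 10 terminal web genes and 7 of 12 other keratins and linkers were lower in KO animals, as were 53.4% of all genes in this type, and none of these list genes passed.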

How the data were processed

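Libraries were made with SMART-Seq2, per the labels' protocols, which also name a 10X Genomics kit without saying for which cells. Reads were processed with Bowtie, TopHat and RSEM, per the submitters' processing notes; no versions or genome build are given in those notes. The values the authors deposited are TPM per gene and cell; each cell's values sum to the same total, so depth is not kept. All columns were matched to a library and no 2 were identical. The M1 and M2 codes in the titles were read as animals, and no cell was removed.

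Mean TPM per animal and cell type was transformed as log2(TPM + 1); fold changes on this scale understate low genes. Genes were kept at a mean of 10 TPM or more and above 0 in at least 10% of cells. The 6 types represented in each animal by 10 cells or more entered limma 3.58.1 in R 4.3.3 (lmFit, eBayes with trend, two-sided, Benjamini-Hochberg over all kept genes at 0.05). Of the authors' 9 types, 3 were described only. The moderated F test used 24 values with animal as a covariate, so its p-value measures scatter over types within animals and not the spread between them. Descriptions used pandas 2.3.3. The procedure was checked on simulated data, with cells redrawn within each type over all animals. Spread between animals was therefore not part of that check.

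Members, sets, lists and tests were chosen with earlier results of these data known. The text names all 10 members, Atg16l2, Krt18, up to 2 genes per list with the smallest unadjusted p on the average, the 5 genes most like each set, and the highest or lowest step of a list, the last chosen after their values were seen. Some genes that this rule names are not reported here. Alternatives were pseudocounts of 0.1 and 10, no filter, averaging of log values over cells, quantile normalization, a minimum of 50 TPM, each run alone, 8 combinations of run and animal, a replicate block, no trend, omission of the KO M2 cells of run 1 or of the highest cell, cells with at least 5000 genes, and each animal left out. A crossed pairing was added after seeing the data.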

Additional observations from a re-analysis of the deposited data

Results flagged for a closer look

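In 14 cases a member had both KO animals above both WT animals in 1 type and below them in another. These cases came from 6 of the 9 members tested in at least 2 types, against 26.7% of the 7309 genes tested in at least 2 types. The 2 shares are not on a par. Most of these members were tested in all 6 types, while the 7309 genes include some tested in fewer. A gene tested in fewer types has fewer pairs in which such a case can arise. None of these cases was tested by itself; the F test over all 6 types passed for no member. Values are differences on the log2 scale, KO minus WT, in the first type less that in the second.

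For Krt8 the gap was 0.457 between Stem and Enterocyte, 0.427 between Stem and Goblet, 0.467 between TA and Enterocyte and 0.436 between TA and Goblet. For Krt19 it was 0.586 between Stem and Goblet and 0.657 between early progenitors and Goblet. For Ezr it was 0.635 between late progenitors and Enterocyte and 0.624 between late progenitors and Goblet. For Eps8 it was 0.627 between TA and Stem. For Krt20 it was 1.51 between early progenitors and Enterocyte, the widest of the set. For Cdhr5 it was 0.579 between early progenitors and Enterocyte and 0.383 between early progenitors and Goblet. It was 0.606 between late progenitors and Enterocyte and 0.410 between late progenitors and Goblet. Some of these separations were narrow. In Goblet cells Cdhr5 differed by -0.083, with KO M2 at 277.7 TPM and WT M2 at 279.1 TPM. In Stem cells Eps8 averaged 27.3 TPM in KO M1 and 27.99 TPM in WT M2. In late progenitors the Paneth markers summed to 564 and 8180 TPM in KO M1 and KO M2, against 47.9 and 61.9 TPM in WT M1 and WT M2. KO M1 had 10 cells of this type, and the part of these markers in the gaps was not tested.

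With 2 animals a group, complete separation is frequent: in Enterocyte cells both KO animals lay below both WT animals for 21.6% of all genes and above them for 16.3%. In the other types the share below ran from 13.3% in TA to 20.1% in Goblet cells and the share above from 14.5% in late progenitors to 26.7% in TA cells. For the pairs of types named here, 2.10 to 4.51% of the genes tested in both were above in the first and below in the second.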

How the results depend on the processing

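The count of 0 genes called on the average of 6 types became 1 under quantile normalization, 5 in run 2 alone, 1 with 8 combinations of run and animal, 2 with the replicate block, 4 with cells of at least 5000 genes and 0 to 19 with 1 animal left out. No member was among those called on the average. With the replicate block, 1 member passed for the Enterocyte-minus-Stem step, Krt8 (adjusted p = 0.04998). That fit called 42 of 6714 genes for this step, against 0 in the main fit. For the F test with 1 animal left out, the value of Krt20 is given above. M1 and M2 are not stated to pair animals across genotypes, so the numbers are shared names only (r = -0.133 between the M1 deviations of KO and WT over 6714 genes). A crossed pairing, chosen after seeing the data, gave 44 genes on the average.

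Member differences on the average, none of them called, changed sign as follows. Under quantile normalization Krt8 was 0.14, Krt19 0.10 and Ezr 0.0017. In run 1 alone Krt8 was 0.086, Krt19 0.021, Ezr 0.33, Espn -0.45 and Cdhr2 0.37. In run 2 alone Vil1 was -0.059, Eps8 -0.016 and Cdhr5 -0.063. Without the run 1 cells of KO M2, Vil1 was -0.024, Eps8 -0.14 and Cdhr5 -0.041. With log values averaged over cells Krt19 was 0.0093, with a pseudocount of 10 Espn was -0.022, and with cells of at least 5000 genes Ezr was 0.025 and Cdhr2 0.13. With 1 animal left out the range was -0.14 to 0.054 for Krt8, -0.14 to 0.066 for Krt19, -0.078 to 0.012 for Ezr, -0.20 to 0.35 for Eps8, -0.011 to 0.25 for Espn, -0.20 to 0.18 for Cdhr2 and -0.064 to 0.28 for Cdhr5. The cause was not tested. Krt20 (-0.98 to -0.0084) and Myo1a (0.11 to 0.42) kept their sign on the average in every setting run. Depth per cell is unknown, and 2 animals per genotype limit every test.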
